A study of Phaseolus vulgaris with 6 samples.

Results

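RNA sequencing libraries came from hair-like structures of the common bean, Phaseolus vulgaris. They were searched for genes that stood higher in 1 of the 2 trichome groups than in the other groups. The genes were chosen by their deposited TPM values, a level scaled for gene length and library size. A gene was taken when both AG libraries held at least 10 TPM and the lower of them was at least 3 times the highest of the EPI and BG libraries. Of the 27433 listed genes, 63 met this, and 3 were left out because the lower EPI library was at least 2 times the higher BG library. The remaining 60 AG-elevated genes made up 0.219% of the listed genes and 0.528% of the 11371 genes with at least 10 TPM in both AG libraries. Every level in AG set against EPI or BG was used for this choice and is given as a description, with no test read from it.

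All plants were of the genotype L88-57 and grew under normal conditions at low light in a growth chamber. Libraries came from total RNA with an mRNA library kit. AG and EPI are labelled as trichomes and BG as hooked hairs, with 2 libraries each. The codes are not spelled out, and organ, plant age and the way the hairs were collected are not given in the sources used here. Nothing says that paired libraries came from different plants, so a spread between them may be technical. The libraries lay within 1.47-fold of each other in depth, judged by the ratio of coverage to FPKM and assuming reads of equal length. Between 19194 and 20556 genes reached 1 TPM. The files give no symbol or product for any gene, so neither the trichome label nor other cell types could be checked against marker genes. In such bulk samples, fewer cells of a type and less RNA per cell cannot be told apart.

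Plant trichomes are hairs that grow out of single epidermal cells, and they serve as a physical and, where glandular, a chemical barrier to insects. The hooked hairs of bean leaves are known for catching small insects on their curved tips. Glandular trichomes devote much of their transcription to a few secreted products, and single transcripts can then dominate an RNA pool. The roles of the genes described here are not given, and they are named by their Phvul identifiers with positions as the files print them.

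**Figure D1:**
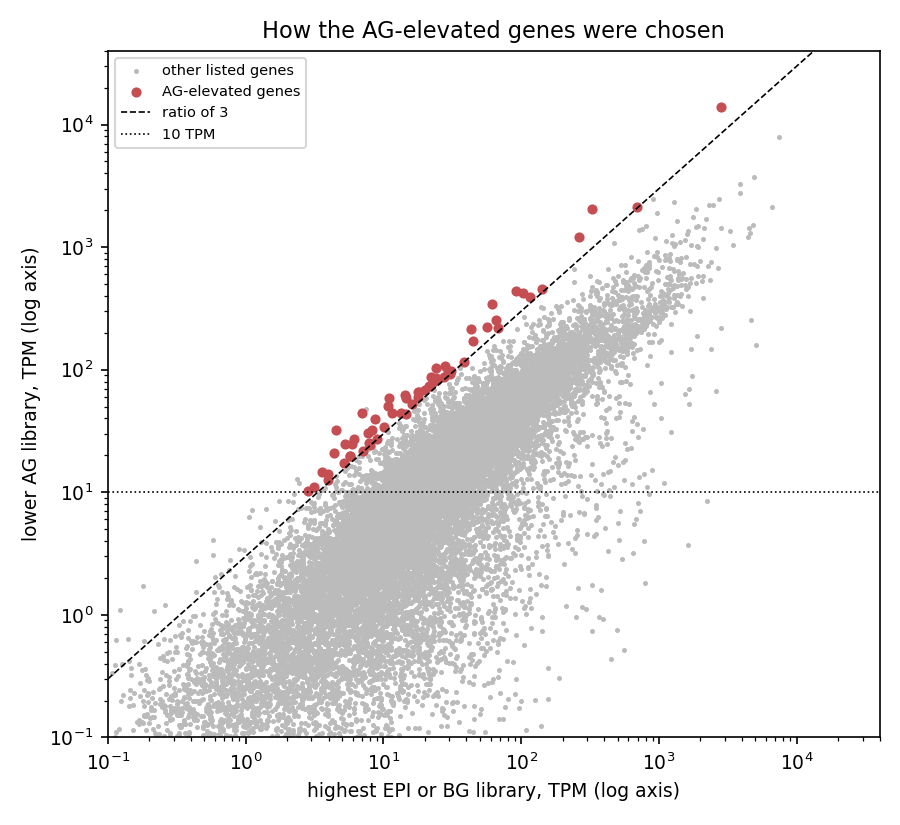
Each point is a listed gene, with its highest EPI or BG library on the x axis and its lower AG library on the y axis, both in TPM on log axes. The 60 AG-elevated genes lie above the dashed line of ratio 3 and the dotted line of 10 TPM, and 1 of them stands far above the rest at the upper right.

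The 60 genes spanned a wide range of abundance. In 4 of them the mean AG level was at least 1000 TPM, in 22 it lay from 100 to 1000 TPM, and in 34 it lay under 100 TPM, down to 16.1 TPM. Together they held 5.33% and 2.63% of the listed TPM in AG libraries 1 and 2. The share was 0.262% and 0.568% in EPI and 0.407% and 0.249% in BG. Summed, AG reached 37466 ± 18002 TPM (SD, n = 2), EPI 3980 ± 2066 TPM and BG 3060 ± 965 TPM. AG was thus 9.41-fold above EPI and 12.2-fold above BG. Without the most abundant gene the sums were 16460 ± 7845, 1865 ± 1040 and 1605 ± 308 TPM, and the folds 8.83 and 10.3. The SD of the AG sum was large because AG library 1 stood above AG library 2, at 50196 against 24737 TPM.

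The most abundant of the 60 was Phvul.008G271700.v2.1, on the plus strand of chromosome 8 from 61570709 to 61571513. It stood at 28189 and 13823 TPM in AG libraries 1 and 2, while EPI held 1390 and 2841 TPM and BG 1919 and 991 TPM. It ranked first among all listed genes in both AG libraries, and it was also abundant elsewhere, with ranks of 39 and 7 in EPI and of 15 and 91 in BG. This single gene of 805 bp held 3.00% and 1.47% of the listed TPM in AG. In the other groups its share lay between 0.104% and 0.297%.

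Next came Phvul.006G139000.v2.1, on the minus strand of chromosome 6 from 24641305 to 24643663. AG held 5430 and 2142 TPM of it, EPI 160 and 690 TPM and BG 292 and 465 TPM. EPI library 2 came closest to AG, and the lower AG library was 3.10 times above it. Phvul.003G158500.v2.1, on chromosome 3 from 37464341 to 37465904, was almost as high in AG, at 5422 and 2055 TPM. The other groups held less of it, with 171 and 302 TPM in EPI and 327 and 180 TPM in BG, and its ratio was 6.28. The fourth gene above 1000 TPM was Phvul.008G216800.v2.1, on chromosome 8 from 56591615 to 56592997, at 1852 and 1218 TPM in AG. It had 75.7 and 262 TPM in EPI and 149 and 130 TPM in BG.

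In these 4 genes AG library 1 was 1.52 to 2.64 times AG library 2. They ranked 1 to 24 among all listed genes in AG library 1 and 1 to 59 in AG library 2. The EPI and BG libraries overlapped in each of the 4, so their order between these groups was not separated.

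**Figure D2:**
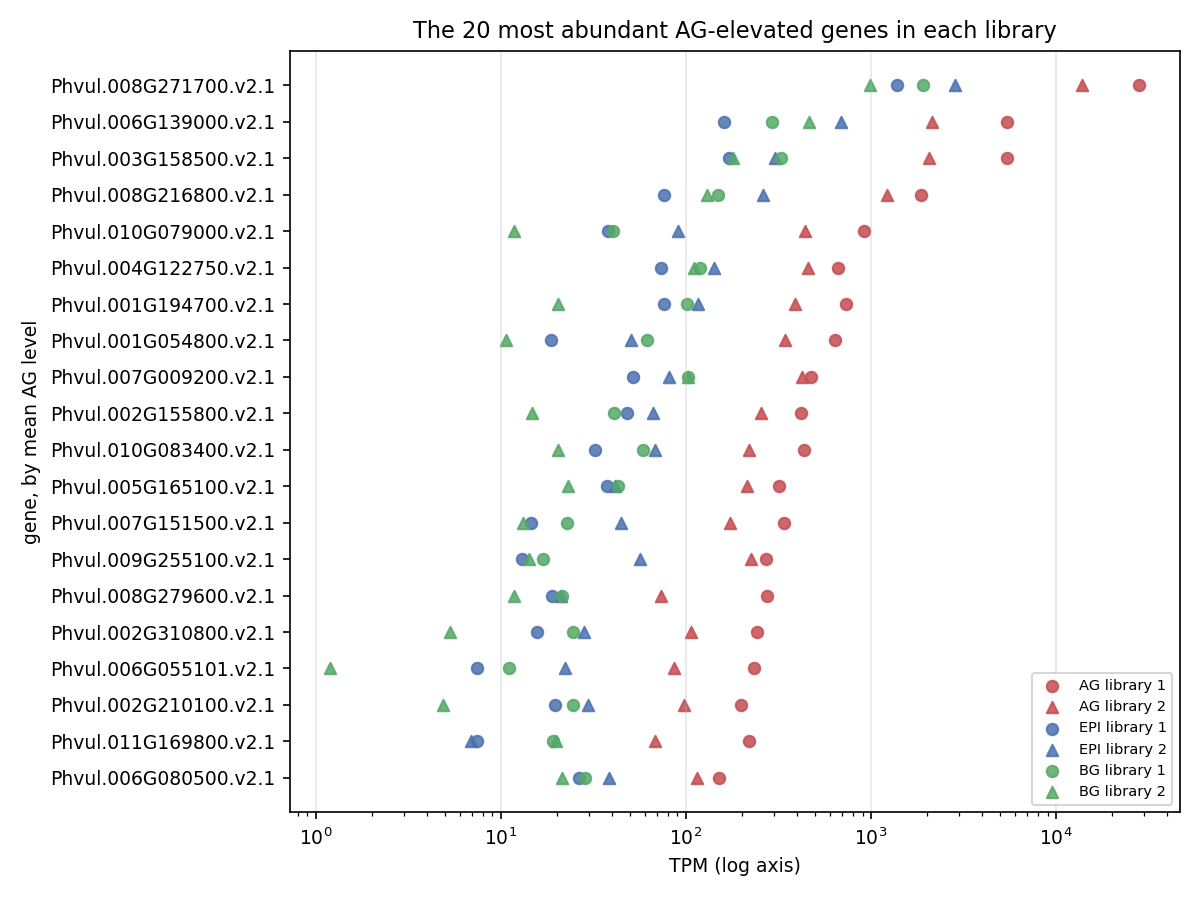
TPM of the 20 genes with the highest mean AG level, 1 point per library on a log axis, coloured by group (circles library 1, triangles library 2). Both AG points lie to the right of all others in each row, as the choice requires, and AG library 1 lies to the right of AG library 2 in all 20 rows.

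Among the 22 genes of 100 to 1000 TPM, the AG libraries ranged from 43.7 to 913 TPM, the EPI libraries from 3.45 to 141 TPM and the BG libraries from 1.19 to 119 TPM. Phvul.010G079000.v2.1 (chromosome 10, 25151667 to 25158544) led this class, with 913 and 440 TPM in AG, 37.9 and 91.0 TPM in EPI and 40.4 and 11.8 TPM in BG. Its mean AG level was 26.0 times that of BG and 10.5 times that of EPI. A short gene of 554 bp followed, Phvul.004G122750.v2.1 located at 41501666 to 41502219 of chromosome 4, and AG held 666 and 456 TPM of it. It kept a higher level elsewhere, at 73.0 and 141 TPM in EPI and 119 and 111 TPM in BG.

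On chromosome 1, Phvul.001G194700.v2.1 (45387547 to 45388230) stood at 732 and 388 TPM in AG, and at 75.9 and 116 TPM in EPI. Its BG libraries were far apart, at 101 and 20.3 TPM. Phvul.001G054800.v2.1 on the same chromosome (6125335 to 6128136) had a similar split in BG, at 61.4 and 10.7 TPM, against 640 and 343 TPM in AG and 18.7 and 50.7 TPM in EPI. A larger split in BG occurred in Phvul.006G055101.v2.1, with 11.1 TPM in BG library 1 and 1.19 TPM in BG library 2. This gene on chromosome 6 stood at 233 and 86.4 TPM in AG.

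Phvul.011G169800.v2.1 (chromosome 11, 47672315 to 47673186) was 1 of 7 genes in the class with a higher mean in BG than in EPI. It had 218 and 68.3 TPM in AG, 7.44 and 6.90 TPM in EPI and 19.2 and 19.9 TPM in BG, so the EPI and BG libraries did not overlap. The opposite order was seen in Phvul.002G155800.v2.1 (chromosome 2, 31015272 to 31017783), where EPI held 47.9 and 66.1 TPM and BG 40.7 and 14.7 TPM, with 416 and 255 TPM in AG. Of the class, Phvul.007G009200.v2.1 on chromosome 7 had nearly equal libraries within AG and within BG, at 475 and 425 TPM and at 103 and 102 TPM. Phvul.008G279600.v2.1 on chromosome 8 had the highest ratio between the AG libraries of all 60 genes, at 3.76, with 275 and 73.4 TPM.

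The 34 genes under 100 TPM ranged from 10.3 to 139 TPM in the AG libraries, from 0.288 to 27.5 TPM in the EPI libraries and from 0.0294 to 24.5 TPM in the BG libraries. The highest ratio of the lower AG library to the highest other library belonged to Phvul.009G217250.v2.1 (chromosome 9, 32743099 to 32743605), at 7.14. Its values were 73.8 and 32.2 TPM in AG, 0.579 and 3.13 TPM in EPI and 4.50 and 1.69 TPM in BG. Phvul.011G204200.v2.1 (chromosome 11, 52094626 to 52095228) reached a ratio of 6.32 with AG libraries that were almost equal, at 44.9 and 44.3 TPM. Its other libraries held 2.59 to 7.01 TPM.

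The largest fold between AG and BG means was 82.6, in Phvul.006G159000.v2.1 (chromosome 6, 26322220 to 26325850). It stood at 28.0 and 12.5 TPM in AG and at 0.461 and 0.0294 TPM in BG. Its EPI libraries differed widely, at 3.94 and 0.288 TPM. The lowest coverage of this gene in an EPI or BG library was 0.0376 reads per base, so that fold rests on very few reads. This gene was named after its values were seen. In 4 of the 60 genes coverage was under 1 read per base in at least 1 EPI or BG library. In AG the lowest coverage of any of the 60 was 14.0 reads per base, and the median over genes, each at its lower AG library, was 81.2.

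Over all 60 genes the ratio of the lower AG library to the highest other library ran from 3.00 to 7.14, with a median of 3.64. It reached 4 in 20 genes, 5 in 6 genes and 6 in 3 genes. Mean AG levels were 3.96 to 28.6 times the EPI means, with a median of 7.43, and 4.36 to 82.6 times the BG means, with a median of 10.1. No AG-elevated gene was listed at 0 in any library, and 26 and 37 of the 60 still reached 10 TPM in EPI libraries 1 and 2, as did 33 and 23 in BG libraries 1 and 2. In 39 of the 60 genes at least 1 EPI or BG library reached 10 TPM.

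**Figure D3:**
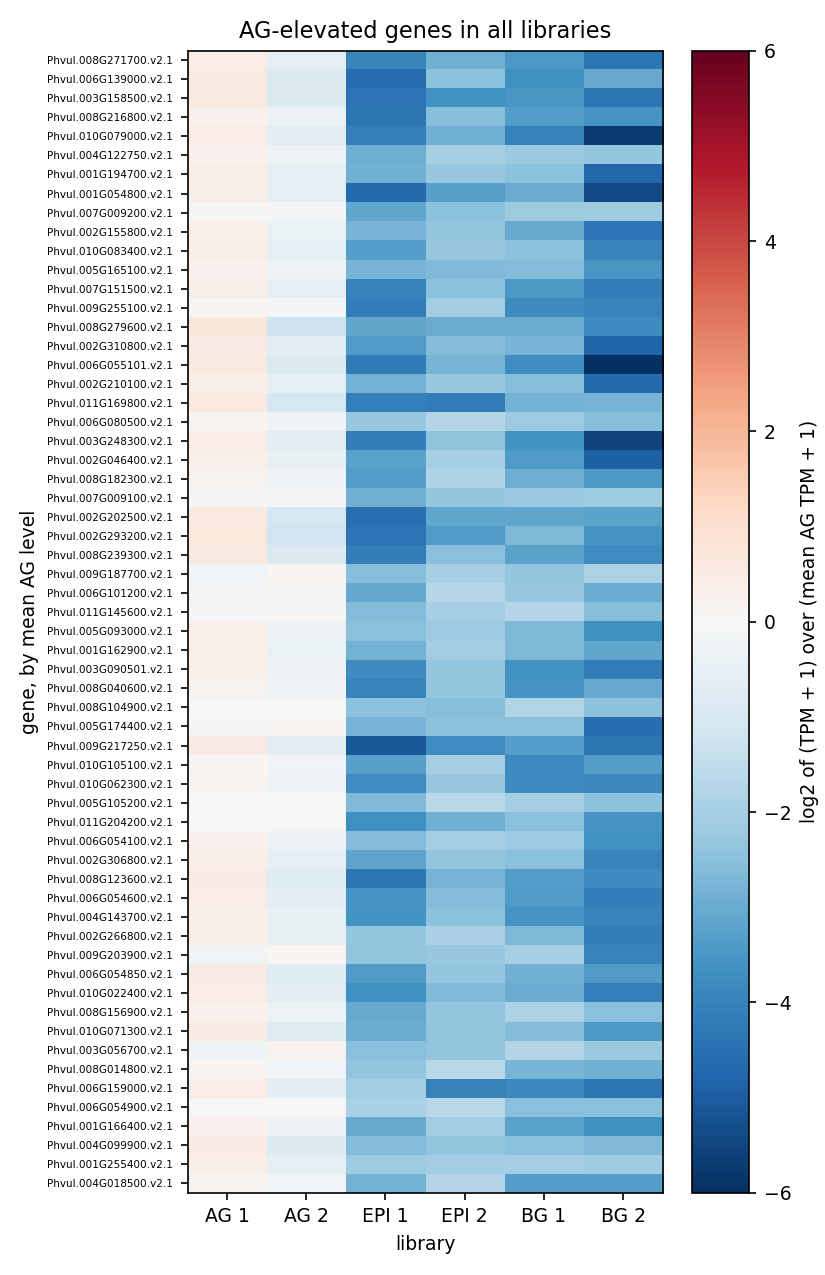
Level of each of the 60 genes (rows, by mean AG level) in each library (columns), as log2 of (TPM + 1) over (mean AG TPM + 1). Blue marks levels below the AG mean, and within the EPI and BG columns the tone changes from library to library in most rows.

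The values at the edge of the choice formed a continuum. Just inside the ratio of 3 lay Phvul.002G293200.v2.1, with 43.7 TPM in the lower AG library and 14.5 TPM in BG library 1, then Phvul.006G080500.v2.1 with 115 against 38.2 TPM and Phvul.002G266800.v2.1 with 27.0 against 8.99 TPM, both against EPI library 2. Just outside lay Phvul.003G212800.v2.1, with 31.8 against 10.6 TPM and a ratio of 2.998, and Phvul.008G089400.v2.1 and Phvul.004G056700.v2.1 with ratios of 2.98 and 2.93. A further 25 tested genes met the ratio but held under 10 TPM in an AG library. The genes set aside for their EPI level were Phvul.010G129900.v2.1, with 130 and 47.4 TPM in AG, 6.90 and 7.50 TPM in EPI and 1.62 and 0 TPM in BG, and Phvul.008G031740.v2.1 and Phvul.008G282000.v2.1, which stood under 16 TPM in AG.

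Counting the same levels with the groups exchanged, 33 genes were elevated in EPI over AG and BG, and 200 in BG over AG and EPI, by the same 10 TPM and ratio of 3. The exclusion of genes by a second ratio was applied in AG alone, where it removed 3.

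The fit across all genes used limma on log2(TPM + 1) and tested the 21571 genes that reached 1 TPM in 2 or more of the libraries. All 60 AG-elevated genes passed this filter, through their AG libraries by construction. Between BG and AG, 58 of the 60 were called lower in BG at a Benjamini-Hochberg adjusted p under 0.05, where 5.34% of all tested genes were. The choice used this contrast, and nothing is read from the count. The uncalled genes were Phvul.006G139000.v2.1 (log2 difference -3.21 ± 0.79 SE, limma adjusted p = 0.0576) and Phvul.002G293200.v2.1 (-2.85 ± 0.68, adjusted p = 0.0529). Phvul.008G279600.v2.1, with AG libraries that were also far apart, was called (-3.08 ± 0.62, limma adjusted p = 0.0351). For each gene the fit shares a single estimate of the spread over all groups, and what set these calls apart was not tested. Log2 differences of the 60 ran from -4.80 to -1.97 with a median of -3.20, against a median of 0.18 over all tested genes. The number of the 60 called was 0 without AG replicate 1, without BG replicate 1 or without BG replicate 2, and 29 without AG replicate 2. Testing every detected gene lowered it to 13.

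Between EPI and AG, 0 of the 60 were called, and 0% of all tested genes were, by limma at the same threshold. At an unadjusted p under 0.05, all 60 were lower in EPI, where 6.02% of tested genes were, again in a contrast that the choice used. Log2 differences ran from -4.29 to -1.80 with a median of -2.69, against 0.15 over all tested genes. These comparisons share the AG libraries and are not independent. After leaving out any 1 library, every log2 difference of the 60 genes from AG stayed negative, the nearest to 0 being -1.58. The choice fixes this sign, since both AG libraries lie above every EPI and BG library, so nothing is read from it.

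The contrast of EPI with BG was used in part, since both groups were bounded from above and genes with EPI well above BG were removed. Of the 60, 0 were called between EPI and BG in either direction, where 4.99% of all tested genes were, and 2 of the 60 had an unadjusted p under 0.05, where 20.1% of tested genes had one. One was Phvul.011G169800.v2.1, lower in EPI (log2 difference -1.33 ± 0.52 SE, limma adjusted p = 0.221). The other, named after its values were seen, was Phvul.002G046400.v2.1, higher in EPI at 12.6 and 30.6 TPM against 11.0 and 3.24 TPM (log2 difference 1.54 ± 0.62, adjusted p = 0.238). The EPI mean exceeded the BG mean in 44 genes and fell below it in 16, where it was the higher one in 47.6% of tested genes. This split depended on single libraries: EPI was the higher one in 27 of the 60 without EPI library 2 and in 32 without BG library 2. It was the higher one in 53 without EPI library 1 and in 49 without BG library 1. The median log2 difference of the 60 between EPI and BG was 0.41 with all libraries, -0.01 without EPI library 2 and -0.06 without BG library 2. Without EPI library 1 that median was 0.91, and without BG library 1 it was 0.77. Both EPI libraries lay above both BG libraries in 10 of the 60, where 25.6% of tested genes did, and both lay below in 4, where 25.2% did. EPI library 2 was the highest of the 4 other libraries for 41 genes, BG library 1 for 15, BG library 2 for 3 and EPI library 1 for 1.

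The replicate libraries differed in the same direction across most of the 60 genes. The choice set no order between replicates, but it used the same values. The orders given here are the ones that most of the 60 took, which favours the 60 in any comparison. AG library 1 exceeded AG library 2 in 53 of the 60, EPI library 2 exceeded EPI library 1 in 57, and BG library 1 exceeded BG library 2 in 53. Among all 11371 genes with at least 10 TPM in both AG libraries, these orders held in 37.5%, 58.2% and 44.6%. All of these orders held together in 46 of the 60 genes, or 76.7%, against 8.05% of the 11371. Genes of a library are not independent of each other, so no test is attached to these shares.

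The size of the difference was similar in each group. Over the 60 genes the median ratio was 1.66 for AG library 1 over 2, 1.98 for EPI library 2 over 1 and 1.71 for BG library 1 over 2, while over the 11371 genes the medians were 0.902, 1.06 and 0.953. Among the 124 genes that met a ratio of 2 but not of 3, the orders held together in 70, or 56.5%. Among genes elevated in BG they held together in 5 of 200, and among those elevated in EPI in 0 of 33. Taken singly, the orders of AG, EPI and BG held in 65%, 19% and 30.5% of the BG-elevated genes. In the EPI-elevated genes they held in 15.2%, 36.4% and 39.4%. Replicate order was thus uneven in those genes too, mostly in the other direction, and is not particular to the 60. Relative depth was 1.13 and 1.27 in AG libraries 1 and 2, 1.21 and 1 in EPI libraries 1 and 2, and 1.47 and 1.18 in BG libraries 1 and 2, and its part in these orders was not tested.

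**Figure D4:**
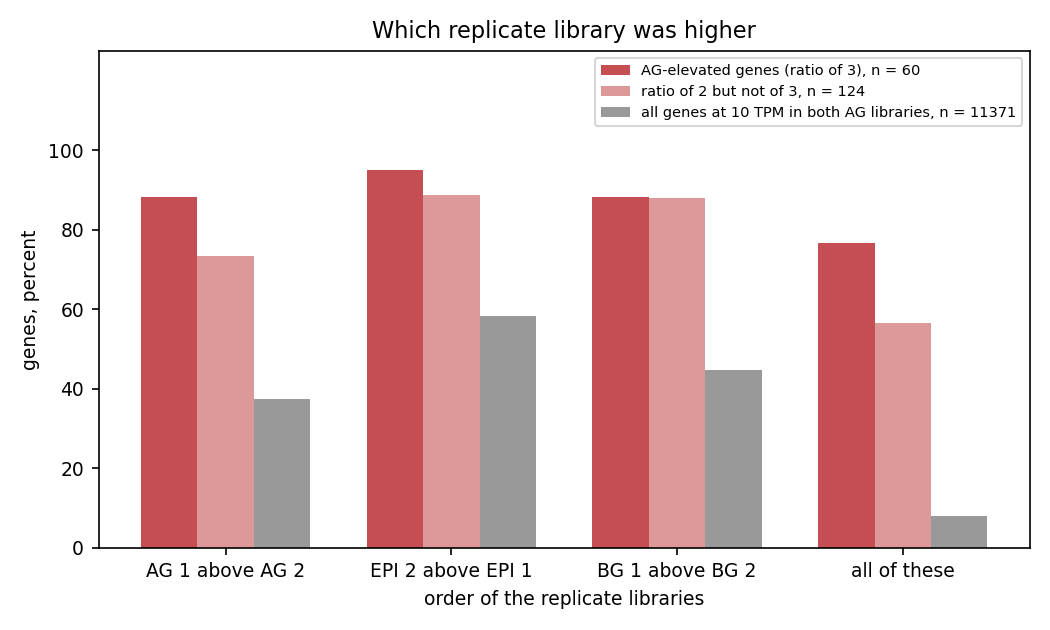
Percent of genes in which the named replicate library was the higher one, for the 60 AG-elevated genes, the 124 genes at a ratio of 2 but not of 3, and all 11371 genes with at least 10 TPM in both AG libraries. The bars of the AG-elevated genes reach 88.3%, 95% and 88.3%, and 76.7% for all orders together, above the grey bars in each case.

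Some of the 60 did not follow these orders. AG library 2 was the higher one in 7 genes, and its ratio to AG library 1 was highest in Phvul.003G056700.v2.1, at 1.43, with 24.3 and 34.7 TPM in AG libraries 1 and 2. Phvul.008G104900.v2.1 had nearly equal AG libraries, at 65.7 and 65.8 TPM, and Phvul.009G187700.v2.1 stood at 84.9 and 103 TPM. The AG libraries agreed within 1.2-fold in 9 genes, and AG library 1 was at least 3 times AG library 2 in 4. EPI library 1 exceeded library 2 in 3 genes, Phvul.006G159000.v2.1, Phvul.011G169800.v2.1 and Phvul.008G104900.v2.1, and these and the genes named above for AG library 2 were chosen after their values were seen.

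How far 1 library decided the choice was examined by choosing without it and reading the library left out. Without AG library 1, 139 genes met the rule, and 61 of them (43.9%) reached 3 times the highest EPI or BG library in AG library 1. Without AG library 2, 264 genes met the rule, and 65 (24.6%) reached the ratio in AG library 2. The choice had already required EPI and BG values well below the AG library kept. Of the 61 and of the 65, 60 were the AG-elevated genes themselves, which the choice had already placed there. The ratio uses the same values, so these shares are a description only. In 34 of the 139 and 35 of the 264 the AG library left out was below the highest other library. The median ratio in the library left out was 2.40 and 2.10.

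Among the other groups EPI library 2 decided the choice most. Without it 165 genes met the rule, and the lower AG library was 3 times EPI library 2 in 59 of them, or 35.8%. All 59 were AG-elevated genes, and the choice and the ratio used the same AG values, so this share is a description only. Without EPI library 1 the number that met the rule was 47, lower than with it, because the exclusion for EPI over BG then read EPI library 2 alone. Without BG library 1 it was 68 and without BG library 2 it was 66. Of the 60 genes, 45 were chosen again without EPI library 1, 44 without BG library 1 and 59 without EPI library 2. All 60 were chosen again without BG library 2 or either AG library. Leaving out an AG library only loosens the rule, so the result for AG is fixed by the choice. Without an EPI or BG library, a gene could be lost only through the exclusion for EPI over BG.

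The AG-elevated genes lay on all 11 chromosomes. Chromosome 8 held 10, chromosome 6 held 9 and chromosome 2 held 8, down to 3 on each of chromosomes 7 and 11. As a share of the genes with at least 10 TPM in both AG libraries, this was 0.963% on chromosome 10, 0.952% on chromosome 6 and 0.886% on chromosome 8, and 0.255% on chromosome 7. The minus strand held 35 of the 60 and the plus strand 25, while 49.3% of the 11371 genes lay on the minus strand. Genomic spans, introns included, ran from 210 to 14729 bp with a median of 2436 bp, against 3801 bp for the 11371 genes and 3354 bp for all tested genes. A span under 1000 bp was seen in 12 of the 60, and in 6.48% of the 11371.

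Of the 60 genes, 7 lay within 200000 bp of another of them, in 2 neighbourhoods, and 53 lay alone. The larger neighbourhood held 5 genes on chromosome 6 between 15967375 and 16141470, all on the minus strand. They were Phvul.006G054100.v2.1, Phvul.006G054600.v2.1, Phvul.006G054850.v2.1, Phvul.006G054900.v2.1 and Phvul.006G055101.v2.1. Summed, they stood at 410 and 185 TPM in AG, 23.1 and 49.6 TPM in EPI and 29.2 and 10.1 TPM in BG. The last of them contributed most in AG. The lowest was Phvul.006G054900.v2.1, at 20.2 and 19.6 TPM in AG, 4.36 and 5.68 TPM in EPI and 2.65 and 2.63 TPM in BG.

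In this interval of 174 kb the files list 15 genes, of which 12 were tested and 6 had at least 10 TPM in both AG libraries. The sixth of these, Phvul.006G054700.v2.1, stood at 101 and 58.9 TPM in AG, but EPI library 2 held 28.3 TPM, which kept it out. Phvul.006G055000.v2.1, between chosen genes, had the same order at lower levels, with 11.9 and 6.03 TPM in AG and no more than 2.71 TPM elsewhere. Not all genes there followed it: Phvul.006G054200.v2.1 was highest in BG, at 19.6 and 6.15 TPM, against 1.59 and 0.877 TPM in AG. Phvul.006G054600.v2.1 lies inside the span of Phvul.006G054550.v2.1 on the other strand. Whether counting used strand is not given, and that partner held at most 1.54 TPM. Similar copies among these neighbours could share reads, so the split between them is uncertain.

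**Figure D5:**
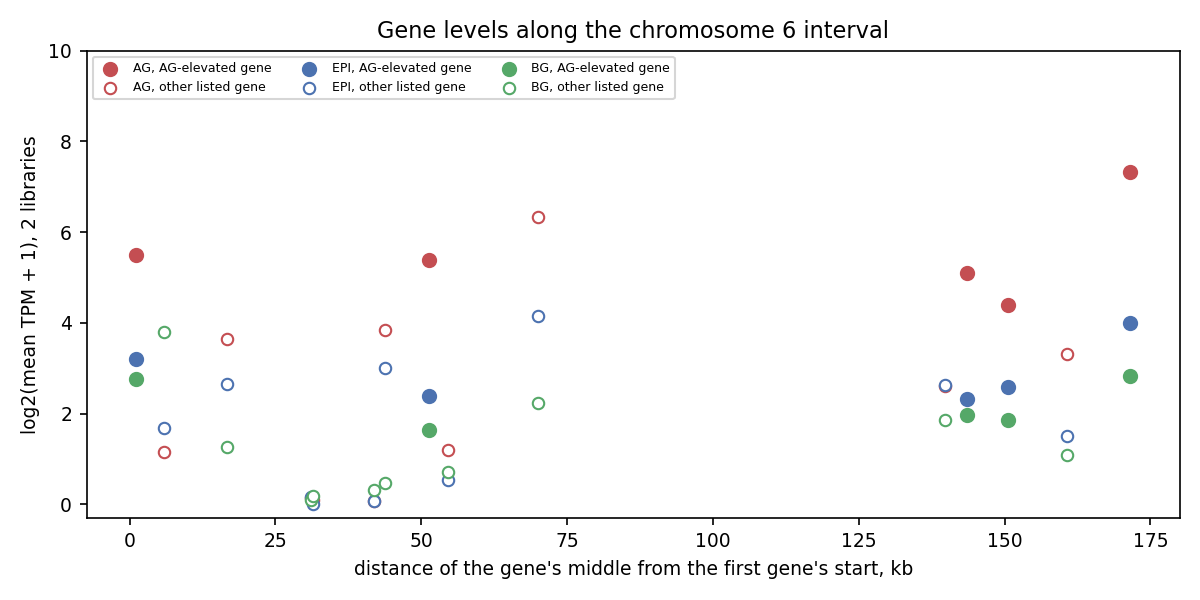
Levels of the 15 listed genes of the chromosome 6 interval, as log2(mean TPM + 1) over 2 libraries, against the distance of the gene's middle from the start of the first gene in kb. Filled points are the 5 AG-elevated genes, where AG stands above EPI and BG. Open points are the other genes, which include near-silent genes, others with the highest mean in AG, and Phvul.006G054200.v2.1, highest in BG.

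The smaller neighbourhood was a pair on chromosome 7, Phvul.007G009100.v2.1 on the plus strand (657680 to 659317) and Phvul.007G009200.v2.1 on the minus strand (661883 to 663334). They are adjacent in the files and point towards each other. The first stood at 118 and 103 TPM in AG, 14.1 and 21.7 TPM in EPI and 22.8 and 24.1 TPM in BG. The second was about as steady within groups at a higher level, with 51.7 and 81.4 TPM in EPI. The AG mean was 6.19 and 6.76 times the EPI mean in the pair, and 4.72 and 4.39 times the BG mean.

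Some genes next to the AG-elevated ones also stood higher in AG, and no test is attached to their number. Among the 88 immediate neighbours that were tested and not themselves chosen, 15, or 17.0%, had a mean AG level at least 2-fold above the higher of the EPI and BG means on the log2(TPM + 1) scale. The same held for 3.96% of all tested genes. Of these 15 neighbours, 13 lay on the strand of the chosen gene and 2 on the other, while 61 of the 88 lay on the same strand. The neighbours' median log2 value was -0.03, against -0.38 over all tested genes. The highest value, 2.98, belonged to Phvul.001G166300.v2.1, whose AG mean was 332 TPM, EPI mean 41.1 TPM and BG mean 10.9 TPM. Its chosen neighbour, Phvul.001G166400.v2.1, was weaker, with 22.9 and 14.5 TPM in AG. Phvul.011G169900.v2.1, beside Phvul.011G169800.v2.1, had an AG mean of 544 TPM, an EPI mean of 118 TPM and a BG mean of 64.5 TPM. These neighbours, and Phvul.001G166400.v2.1, were named after their values were seen. Shared reads between similar neighbouring copies were not examined.

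Matched by position to the RefSeq table of assembly P. vulgaris v2.0, 54 of the 60 genes overlapped a table gene by at least 0.5 of the longer of the pair. The table calls 50 of these protein-coding, 3 pseudogenes and 1 a long non-coding RNA. Of all matched genes, 96.4% were protein-coding, 2.06% pseudogenes and 1.43% long non-coding RNAs. The pseudogene matches were Phvul.008G104900.v2.1, Phvul.006G054600.v2.1 and Phvul.006G054900.v2.1, and the latter pair lies in the chromosome 6 neighbourhood. The non-coding match, like the first pseudogene match named for its class, was Phvul.011G145600.v2.1, at 82.3 and 88.1 TPM in AG and 13.0 to 24.5 TPM elsewhere. All 4 genes above 1000 TPM in AG matched protein-coding genes, listed as LOC137826084 for Phvul.008G271700.v2.1, LOC137833545 for Phvul.006G139000.v2.1, LOC137807467 for Phvul.003G158500.v2.1 and LOC137826426 for Phvul.008G216800.v2.1. The table gives no product for these identifiers.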

How the data were processed

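Each of the 6 libraries (3 groups of 2, from the sample titles) has a table of coverage, FPKM and TPM per gene, per the file headers. Trimmomatic, HISAT2 and StringTie are named without versions in the submitters' processing notes; the genome build and strand use were not found in the labels or headers. The TPM deposited by the authors sums to 920150 to 961603 over the listed genes. The deposited FPKM served as an alternative and the deposited coverage (reads per base) for depth. Read counts were not used here, so no counting intervals are given.

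The members and lists were chosen with earlier results of these data known. Genes named were taken from the 20 highest in AG, the 10 highest by ratio, those at the edges of the rule and those in neighbourhoods, others being marked. The 29 lists and the cell type markers, set by product name, could not be applied, since 0 of the members' IDs occur in the 34165 rows of the reference table and neither source gives products. Position matching assumed equal builds: 84.8% of chromosome genes overlapped a table gene by at least 0.5 and 66.0% by at least 0.9 of the longer gene, strand not compared, and the last gene ended within 8855 bp on each chromosome.

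limma 3.58.1 (R 4.3.3) fitted log2(TPM + 1), which understates changes of low genes, with a mean per group over all 6 libraries, a variance trend and two-sided Benjamini-Hochberg adjustment over 21571 genes with 1 TPM in at least 2 libraries. The fit was tested on simulated data with independent noise, smaller than the spread between the AG libraries, so its power in the present libraries was not tested. Figures used matplotlib 3.10.9.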

Additional observations from a re-analysis of the deposited data

How the results depend on the processing

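The number of genes that met the rule was 184 at a ratio of 2 and 6 at a ratio of 5, and 47 to 264 when 1 library was left out. It was 69 and 52 at 5 and 20 TPM, 51 on FPKM values and 66 after median-of-ratios scaling, with 50 and 58 of the 60 shared. With no minimum level, 556 genes were called between BG and AG in place of 1905, and 301 between EPI and BG in place of 1076, and 13 in place of 58 of the 60 genes were called for BG against AG. Leaving out 1 library gave 0 to 2430 genes for BG against AG, 0 to 14 for EPI against AG and 0 to 961 for EPI against BG, and among the 60 genes 0 to 60, 0 to 1 and 0 to 1. Where this left 1 library in a group, it was assumed to vary like the others.

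With the replicate number as a block, 33 of the 60 were called for BG against AG, and 1438, 0 and 855 of all genes in the comparisons in the order above. Whether equal replicate numbers pair libraries is not given, and the main fit did not take them to. Differences between libraries 1 and 2 correlated across tested genes at 0.096 (AG with BG), -0.03 (AG with EPI) and 0.25 (BG with EPI). Such values cannot show whether libraries of the same number were collected together. Median-of-ratios scaling moved the median BG minus AG log2 difference of all tested genes from 0.18 to 0.04, and that of the 60 from -3.20 to -3.35. None of the 32 named AG-elevated genes reversed its log2 difference from AG in any setting. The choice had placed every AG library above every EPI and BG library in them, so nothing is read from this. Depth is known only as coverage, which limits the folds of the lowest genes.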
